A study of Saccharomyces cerevisiae with 3 samples.

Results

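The seripauperins (PAU) and the cell wall mannoproteins of the DAN and TIR families of budding yeast were followed in cells of increasing replicative age. The features were taken by gene symbol, PAU, DAN or TIR followed by digits, which gave 26 of the 5792 yeast gene features of the array: 4 TIR, 4 DAN and 18 PAU. On 3 arrays of oligonucleotide probes, RNA of older cells of strain BY4742 (4th generation on the first, 7th on the next, 11th on the last) was labelled with Cy3 and set against 1st generation RNA labelled with Cy5. The genotype was the same throughout: BY4742 is haploid, of mating type alpha, and known to lack functional HIS3, LEU2, LYS2 and URA3. Per the labels, cells were tagged with biotin, grown in YPD, a rich glucose medium, at 30°C, and the tagged older cells were pulled out with magnetic beads. The labels do not say how cells of the 1st generation were collected, nor if the arrays shared a single preparation of their RNA. Each value below comes from 1 array without a dye swap, and the precision is limited by the number of arrays. In a comparison with the 1st generation, generation and the dye preference of a probe cannot be told apart.

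All 26 features matched the RefSeq gene table of the yeast genome by systematic name. DAN2 (YLR037C) and DAN3 (YBR301W) are now called PAU23 and PAU24 there, so both are seripauperins by present naming, while the older symbols of the array are kept here. None of the 26 names several loci. A further feature, which has no symbol on the array, names YIL176C, YJL223C, YLL064C and YNR076W together, the 4 loci that the table calls PAU14, PAU1, PAU18 and PAU6. It is described beside the 26 and is not counted among them. Seripauperin genes resemble each other closely, so a probe may also take up transcript of relatives, and values of single PAU features are uncertain for that reason. Counts of these features below need not stand for as many separate transcripts. The shares over all features set beside them do not allow for this. How far probes share transcript was not tested.

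Yeast rebuilds its cell wall when oxygen or warmth is lost. In air the wall carries mannoproteins such as Cwp1 and Cwp2. Under low oxygen these give way to the serine- and alanine-rich mannoproteins of the TIR and DAN families, which are held in the wall by glycolipid anchors, and the TIR genes are known for induction by cold shock as well. The zinc-cluster activator Upc2, which responds to falling sterol, switches on DAN, TIR and many PAU genes without oxygen, while Rox1 and Mot3 repress hypoxic genes in air. Seripauperins are small relatives of the TIR proteins that lack most of their serine-rich part, are encoded mainly near chromosome ends, and are induced in wine fermentation, in the cold and without oxygen. Strains derived from S288C, such as BY4742, carry a transposon in HAP1, the gene of a haem-responsive activator of aerobic genes, which limits them as a model of oxygen-controlled genes.

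Median raw intensities were between 161 and 178 in Cy5 and between 496 and 592 in Cy3. Signal was taken as above background where raw intensity exceeded the mean plus 2 SD of 320 blank spots, between 26.4 and 32.2 in Cy5 and between 51.3 and 70.5 in Cy3. The 4 alpha-specific genes SAG1, STE3, MF(ALPHA)1 and MF(ALPHA)2 were above this limit in both channels of every array, and at the 11th generation they were between 2.52-fold and 11.6-fold lower than in the 1st. The part of these lower values in the results below was not tested. The 6 a-specific genes had raw Cy5 intensities of at most 86.9. LEU2 was below the limit everywhere, LYS2 and URA3 lay near it, and HIS3, known to be only partly deleted in this strain, gave Cy5 intensities between 356 and 435, so its probe checks nothing. The Cy3 limit of 70.5, that of the 7th generation, was raised by outlying blanks, with a blank SD of 14.5 and a maximum of 294. Without outlying blanks it was 45.3, but the limit of 70.5 is the one used below. Ratios depended on the place of the spot, with a median log2 ratio over all features of 0.25 in even and -0.21 in odd print blocks at the 11th generation. The only gene with repeated spots, the actin gene ACT1, had 8 spots, over which the SD of the log2 ratio was 0.40 at the 4th, 0.44 at the 7th and 0.64 at the 11th generation. These SDs are the only measure of the error of a single spot that the arrays offer, and they rest on 1 gene. After subtraction of the median of neighbouring spots they were 0.16, 0.19 and 0.55, so they are not free of the effect of place.

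At the 11th generation the transcripts of these wall proteins were higher than in the 1st: 21 of the 26 features were at least 2-fold higher and 0 were at least 2-fold lower, with a median log2 ratio of 1.83. Over all features above background, 7.35% were at least 2-fold higher and the median log2 ratio was 0.03. At the 4th generation 4 of 25 members above background were at least 2-fold higher (TIR1, TIR4, PAU9 and PAU10), where 4.19% of all features were, and the median of the members was 0.39. At the 7th generation 8 of 25 were at least 2-fold higher, these being PAU9, TIR1, TIR4, PAU10, PAU12, TIR3, PAU8 and DAN3, where 4.56% of all features were, and the median was 0.58. No member was at least 2-fold lower on any array, where 3.64%, 3.56% and 5.51% of all features were at the 4th, 7th and 11th generation. With other processing 2 dim members passed this limit: DAN4 at the 7th generation, and PAU21 at the 11th with median centring, at -1.21. In bulk RNA, more cells with a transcript and more transcript per cell cannot be told apart. Each of the 3 comparisons is made against 1st generation RNA, and whether that RNA was shared is not stated.

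**Figure D1:**
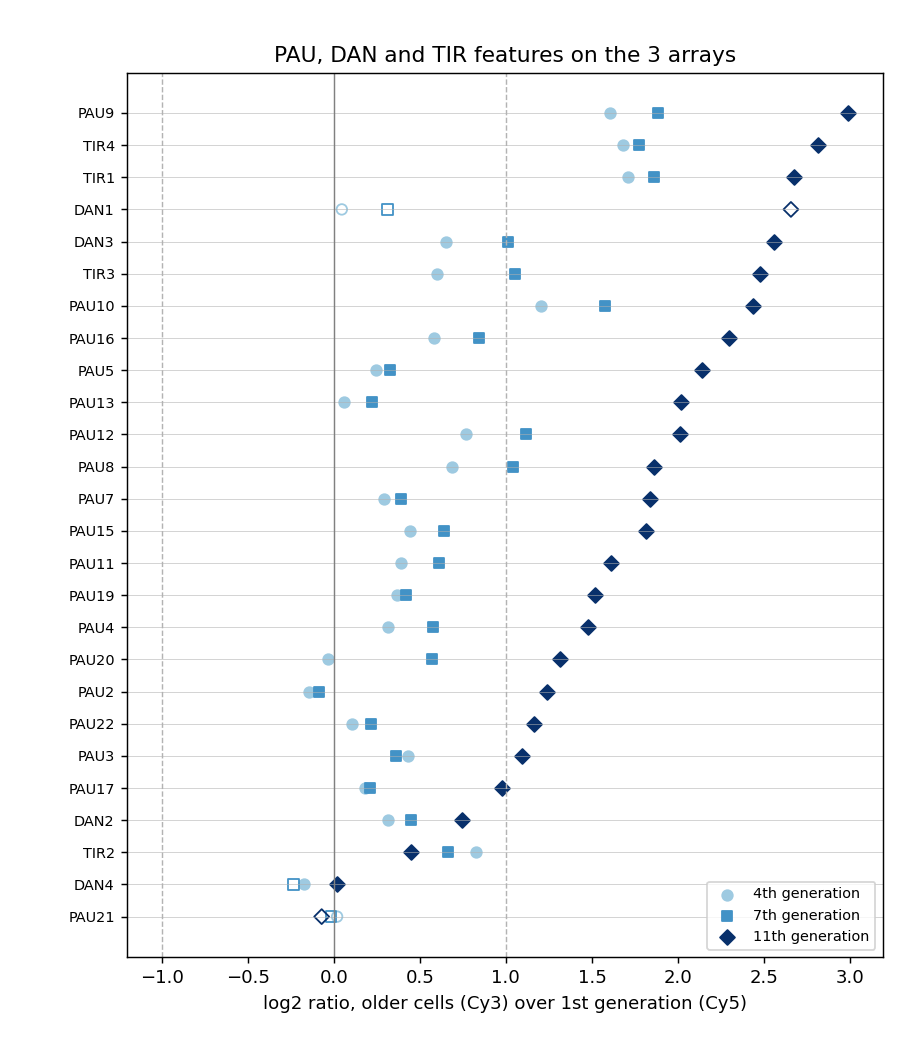
Log2 ratio of older cells (Cy3) over the 1st generation (Cy5) for the 26 members, in order of the 11th generation value, with 1 point per array. Open symbols mark a feature not above the blank spots in both channels, and the dashed lines mark 2-fold. At the 11th generation 21 features lie beyond 2-fold, while DAN4 and PAU21 lie close to 0 and TIR2 lies at 0.45.

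Of the TIR genes, TIR1 (YER011W), a wall mannoprotein of cold shock and low oxygen, had raw Cy3 intensities of 1417, 1678 and 3186 at the 4th, 7th and 11th generation against Cy5 intensities of 140, 140 and 135. It was 3.27-fold, 3.63-fold and 6.40-fold higher than in the 1st generation. TIR4 (YOR009W), which is required for growth without oxygen, had Cy3 intensities of 680, 800 and 2011 against 61.0, 60.2 and 63.0 in Cy5. Its ratios were 3.20-fold, 3.42-fold and 7.03-fold. Both genes were thus already beyond 2-fold at the 4th generation, with the 1st generation signal nearly level across the arrays.

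TIR3 (YIL011W), also required for growth without oxygen, had Cy3 intensities of 616, 848 and 3229 against 133, 124 and 163 in Cy5. It was 1.52-fold higher at the 4th generation, 2.07-fold at the 7th and 5.57-fold at the 11th. The high array was that of the 11th generation, whose Cy3 intensity stood well above those of the others. TIR2 (YOR010C), a cold-shock mannoprotein that lies next to TIR4 on the chromosome, ran the other way. Its Cy3 intensities were 277, 228 and 178 against 49.7, 42.5 and 37.3 in Cy5, and its ratios were 1.77-fold, 1.58-fold and 1.37-fold higher than in the 1st generation. TIR2 was the only member above background on every array whose ratio was lower at the 11th than at the 4th generation. Its difference of -0.38 on the log2 scale is smaller than the SD of 0.55 of that difference over the ACT1 spots. In the authors' deposited values the log2 ratios of TIR2 were 1.79, 1.58 and 1.57, so nearly level from the 7th to the 11th generation.

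DAN1 (YJR150C), a mannoprotein named for delayed anaerobic induction and described as silent in air, gave no Cy5 signal above the blank spots on any array, with 29.0, 22.8 and 27.4. In Cy3 its intensities were 58.6, 73.0 and 1046, so the 4th and 7th generation values lay just over the blank limits of 56.6 and 70.5 and the 11th generation value far above. The ratio at the 11th generation is therefore a lower bound as far as the Cy5 level goes. As that level, the larger of the feature's own normalised Cy5 signal and the lowest normalised signal above background was used. With the processing reported here DAN1 was at least 6.31-fold higher than in the 1st generation (log2 ratio 2.66). The bound does not cover other processing. There the log2 ratio ran from 2.37 after subtraction of neighbouring spots to 6.42 under plain subtraction. At the 7th generation the bound was 1.24-fold, but the log2 ratio ran from -0.46 with median centring to 3.52 under plain subtraction. At the 4th generation the bound was below 1, so no fold is given. The DAN1 transcript was thus near the blank spots at the 4th generation and far above them at the 11th. At the 7th its Cy3 intensity of 73.0 was just over the limit of 70.5 but well over 45.3, the limit without outlying blanks.

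DAN4 (YJR151C), the neighbour of DAN1 and a much longer mannoprotein of the same kind, had Cy3 intensities of 72.6, 55.5 and 96.0 against 40.9, 33.4 and 36.7 in Cy5. Its log2 ratios of -0.17, -0.23 and 0.02 lay within the ACT1 spot SD of 0. On the 7th generation array its Cy3 signal was below the blank limit of 70.5, though above 45.3, the limit without outlying blanks. These values depended on the processing: with the blank signal simply subtracted DAN4 came to -0.91 at the 4th and -1.45 at the 7th generation, in the authors' deposited values to -0.68 and -1.30, and with median centring to -0.86 and -1.03. DAN3 had Cy3 intensities of 797, 1023 and 3309 against 169, 158 and 158 in Cy5, and was 1.57-fold, 2.02-fold and 5.89-fold higher. DAN2 was dimmer, with 118, 126 and 230 in Cy3 against 37.7, 30.6 and 34.9 in Cy5, and was 1.25-fold, 1.36-fold and 1.68-fold higher. The adjacent DAN1 and DAN4 thus differed widely at the 11th generation, as did the adjacent TIR2 and TIR4.

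**Figure D2:**
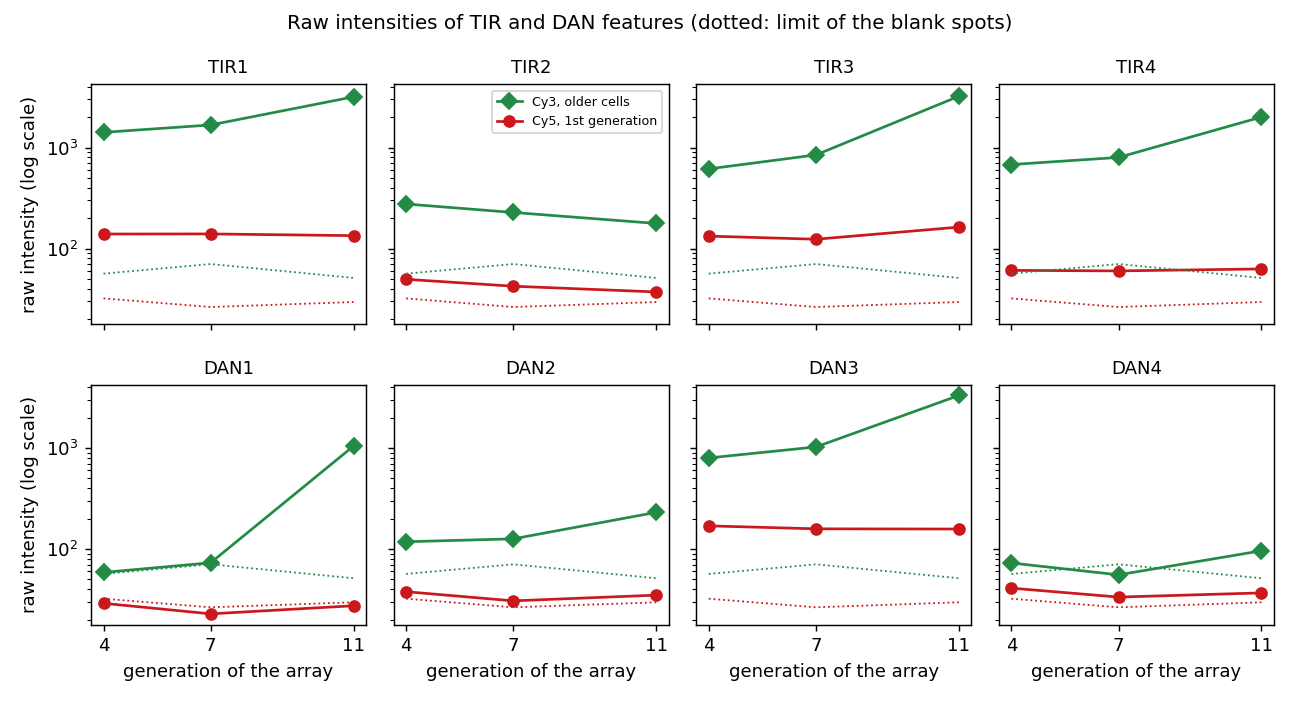
Raw intensity (log axis) of each TIR and DAN feature against the generation of the array, with Cy3 of the older cells in green diamonds, Cy5 of the 1st generation in red circles and the limits of the blank spots dotted. Cy3 of TIR1, TIR3, TIR4, DAN1 and DAN3 is highest at the 11th generation, that of TIR2 goes from 277 to 178, and Cy5 stays nearly level.

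Of the 18 PAU features, 16 were higher by 2-fold or more at the 11th generation, with a median log2 ratio of 1.71, against 2 of 17 at the 4th and 4 of 17 at the 7th. The highest was PAU9 (YBL108C-A), with Cy3 intensities of 1455, 1648 and 3851 against 157, 134 and 132 in Cy5, and ratios of 3.04-fold, 3.69-fold and 7.95-fold. PAU10 (YDR542W) had Cy3 intensities of 789, 929 and 1942 against 107, 87.4 and 86.6, and was 2.30-fold, 2.99-fold and 5.42-fold higher. Like TIR1 and TIR4, both were beyond 2-fold on all 3 arrays. After subtraction of neighbouring spots PAU10 was short of 2-fold at the 4th generation, with a log2 ratio of 0.86.

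PAU16 (YKL224C) had Cy3 intensities of 923, 1030 and 3209 against 211, 183 and 190 in Cy5, and was 1.50-fold, 1.79-fold and 4.91-fold higher. PAU5 (YFL020C) had 276, 299 and 1473 against 80.5, 75.0 and 79.1, and was 1.19-fold, 1.25-fold and 4.40-fold higher. PAU13 (YHL046C) had 277, 306 and 1823 against 93.5, 83.3 and 117, and was 1.04-fold, 1.17-fold and 4.05-fold higher. These 3 were within 2-fold of the 1st generation at the 4th and 7th generation and stood out on the 11th generation array. PAU12 (YGR294W) had 929, 1319 and 2926 against 183, 194 and 215, and was 1.71-fold, 2.17-fold and 4.03-fold higher, with values that lay apart on all 3 arrays.

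At the low end, PAU21 (YOR394W) gave no measurable transcript: its Cy3 intensities of 52.1, 48.4 and 52.5 and Cy5 intensities of 27.3, 24.3 and 27.9 were at the level of the blank spots, with only the 11th generation Cy3 value just over the limit of 51.3. Without outlying blanks the 7th generation Cy3 value was also just over its limit, of 45.3. PAU17 (YLL025W) had Cy3 intensities of 183, 163 and 423 against 58.6, 47.4 and 50.7 in Cy5 and was 1.14-fold, 1.16-fold and 1.97-fold higher. PAU3 (YCR104W) had 124, 108 and 319 against 35.4, 29.8 and 33.6 and was 1.35-fold, 1.28-fold and 2.14-fold higher. PAU3 thus lies just inside and PAU17 just outside 2-fold at the 11th generation. The call of PAU3 was lost with loess within each block (0.90) and after subtraction of neighbouring spots (0.76), while its log2 ratio was 2.68 under plain subtraction and came to 3.15 in the authors' deposited table.

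The remaining 9 PAU features (PAU2, PAU4, PAU7, PAU8, PAU11, PAU15, PAU19, PAU20 and PAU22) were between 2.24-fold and 3.63-fold higher at the 11th generation, from PAU22 (YPL282C) to PAU8 (YAL068C). PAU22 had Cy3 intensities of 2322, 2656 and 5747 against 863, 923 and 1029 in Cy5, so its 1st generation signal was far above the blank spots, unlike that of PAU21, whose annotated length of 495 bases it shares. PAU20 and PAU2 had log2 ratios of -0.03 and -0.14 at the 4th generation and 1.31 and 1.24 at the 11th. The feature of PAU1, PAU6, PAU14 and PAU18 had Cy3 intensities of 336, 411 and 1008 against 83.9, 76.1 and 99.5, and was 1.35-fold, 1.61-fold and 2.55-fold higher.

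Differences between the arrays leave out any dye effect of a probe that is alike on them. From the 7th to the 11th generation, 13 of 25 members above background on both arrays were at least 2-fold higher, where 1.85% of all features were, and 24 of 25 were above 0 (2762 of 5556 over all features), with a median log2 difference of 1.00. From the 4th to the 11th generation, 19 of 25 were at least 2-fold higher, where 2.66% of all features were, with a median of 1.23. Both counts include DAN1, whose Cy5 signal was not above background, so the size of its difference is not given. Of the members above background in both channels, PAU13 at 1.96, DAN3 at 1.90, PAU5 at 1.89 and TIR3 at 1.88 had the widest differences between the 4th and 11th generation. From the 4th to the 7th generation 0 of 25 reached 2-fold, where 0.162% of all features did, and the median was 0.17. In none of these differences was a member lower by 2-fold or more, where 0.886% (4th to 11th), 0.612% (7th to 11th) and 0.108% (4th to 7th) of all features were. The same differences had SDs of 0.55, 0.58 and 0.06 over the ACT1 spots. The step from the 7th to the 11th generation exceeded that from the 4th to the 7th in 24 of the 25 members, and in 2771 of all 5546 features measured on every array. The exception was TIR2, for which both steps were below 0.

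The normalised 1st generation channel had about the same range between arrays for these genes as for all features. The level is taken after an offset of 50, which narrows the range of dim features, many members among them. Equal ranges therefore do not show equal steadiness. Over the 24 members above background in Cy5 on every array, the normalised 1st generation level spanned a median range of 0.15 on the log2 scale between arrays, the same as over all 5444 such features, and the widest was 0.44 for PAU13. Of these 5444 features, 149 spanned at least 2-fold and 0 of the 24 members did, which are too few to set apart from that share. DAN1 and PAU21, which are outside the 24, spanned 0.62 and 0.12.

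A straight line in generation (4, 7 and 11) was fitted to the log2 ratios of each feature with limma, the one test that the 3 arrays allow. It has 1 residual degree of freedom per feature, raised to 5.11 by the variance shared over features, and any bend counts as error. Slopes were above 0 for 24 of 25 members, with a median of 0.18 log2 units per generation against 0.00 over all features. After Benjamini-Hochberg adjustment 0 of 25 passed 0.05, where 0.234% of all features rose and 0.018% fell. The adjusted p of limma ran from 0.054 for PAU20 to 0.41 for DAN4. At an unadjusted p under 0.05, 23 of 25 members had a slope above 0, where 16.2% of all features did, and TIR2 had one below 0 (-0.05, unadjusted p = 0.041 and adjusted p = 0.15 in limma). The count at an adjusted p under 0.05 depended on the normalization. It was 19 after median centring and 20 without background correction, where 3.55% and 4.24% of all features rose, and 22 after subtraction of the median of neighbouring spots, an alternative chosen after seeing the data, where 13.04% of all features rose.

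The place of the spots moves with these values and was checked within print blocks. Of the 26 features, 19 lay in even and 7 in odd blocks. At the 11th generation 16 of 19 in even blocks were at least 2-fold higher, where 10.9% of all features in even blocks were, and 5 of 7 in odd blocks, where 3.82% were. The odd-block members beyond 2-fold were PAU13, PAU4, PAU20, PAU2 and PAU22, and the others were DAN4 and PAU21. At the 4th generation the counts were 4 of 19 in even blocks and 0 of 6 in odd blocks, where 7.27% and 1.13% of all features were. At the 7th generation 8 of 19 members in even blocks were at least 2-fold higher, where 7.89% of all features were, and 0 of 6 in odd blocks, where 1.31% were. Of the 8, 4 remained beyond 2-fold with loess within each block (TIR1, TIR4, PAU9 and PAU10), while PAU8, PAU12, DAN3 and TIR3 came to log2 ratios between 0.66 and 0.85. In the difference between the 11th and 7th generation the medians were 1.04 for members in even blocks and 0.92 for those in odd blocks.

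**Figure D3:**
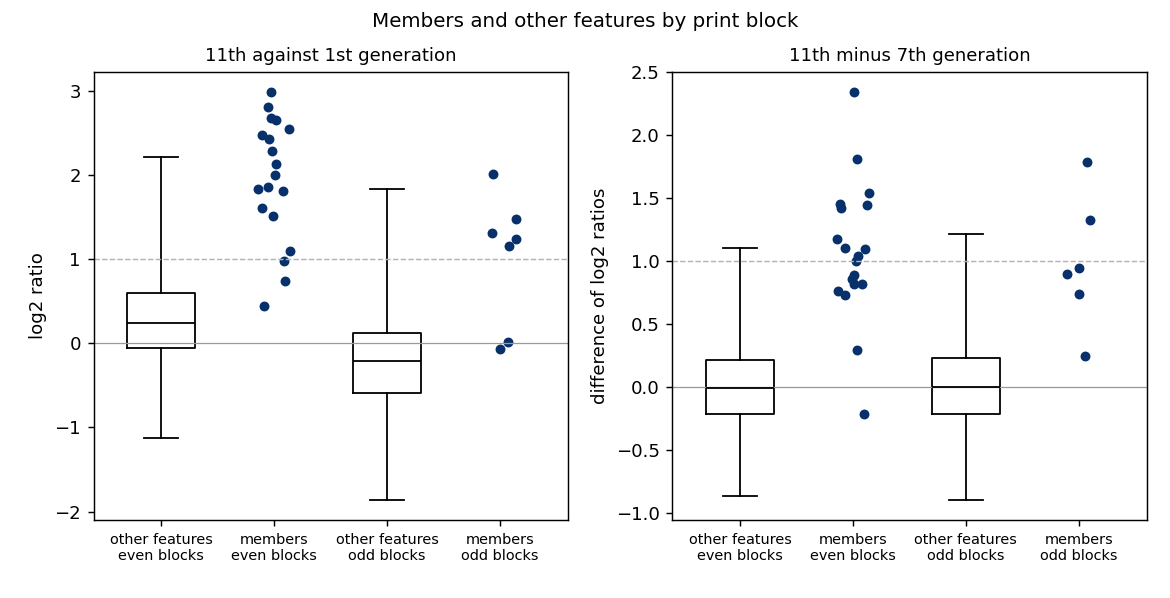
Log2 ratio at the 11th generation (left) and difference of the 11th and 7th generation log2 ratios (right), for members (points) and other features above background (boxes from quartile to quartile with the median, whiskers at the 1st and 99th percentile), in even and odd print blocks. The boxes of even and odd blocks are offset on the left and level on the right, and members lie above the boxes in both kinds of block except for a few features near 0.

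Seripauperins of different annotated length were compared after their values had been seen. At the 11th generation the 9 features of 363 bases (among them DAN3, PAU10, PAU13 and PAU12) had a median log2 ratio of 1.86, from 1.24 to 2.56. The 5 features of 375 bases (PAU3, PAU15, PAU17, PAU19 and DAN2) had a median of 1.09, from 0.75 to 1.82. This order depended on the background correction. The 375-base features had raw Cy5 intensities between 28.2 and 58.6, near the blank spots, and an offset added to both channels draws ratios of such dim features towards 0. Under plain subtraction of the blank signal the medians were 2.21 for 363 bases and 2.68 for 375 bases. In the authors' deposited values they were 2.03 and 3.13. No order between these classes can therefore be given. Of the members short of 2-fold, TIR2, DAN2 and PAU17 came to log2 ratios of 1.10, 1.90 and 1.69 under plain subtraction, and PAU22 was short of it in the authors' deposited values at 0.62. PAU19 (YMR325W) moved the most of the 375-base features, from a log2 ratio of 1.52 to 3.73 under plain subtraction, and stood at 4.21 in the authors' deposited table.

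**Figure D4:**
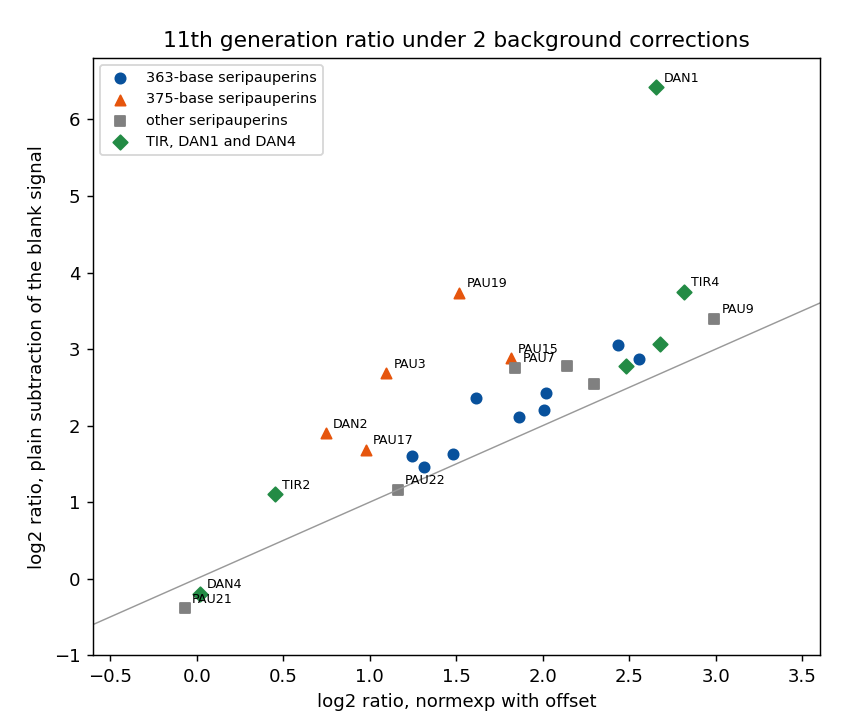
Log2 ratio at the 11th generation after the normexp correction with an offset (horizontal) and after plain subtraction of the blank signal (vertical), 1 point per member, with the line of equality. DAN1, PAU19 and PAU3 lie farthest above the line, the 363-base seripauperins lie closer to it, and DAN4 and PAU21 lie near 0 under both.

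Place on the chromosome was taken from the order of genes in the RefSeq table. Of the 26 members, 15 were among the 10 genes nearest a chromosome end, and 14 of these were higher by 2-fold or more at the 11th generation, with a median log2 ratio of 1.82. Of the 11 farther in, which hold all TIR genes, 7 were, with a median of 1.84. Of the other features among the 10 genes nearest an end, 24 of 237 above background were at least 2-fold higher, where 7.35% of all features were, with a median of 0.06. In the COS family, another set of genes mostly at chromosome ends, 0 of 10 were, with a median of 0.32. These are too few to set apart from the share of 7.35%. Of the 10, 9 had log2 ratios above 0, where 2963 of 5703 features did. In the authors' deposited values 4 of the 10 COS genes were at least 2-fold higher. Of the nearest other features on either side of the members, 6 of 39 above background were at least 2-fold higher, against the same 7.35%, with a median of 0.17.

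**Figure D5:**
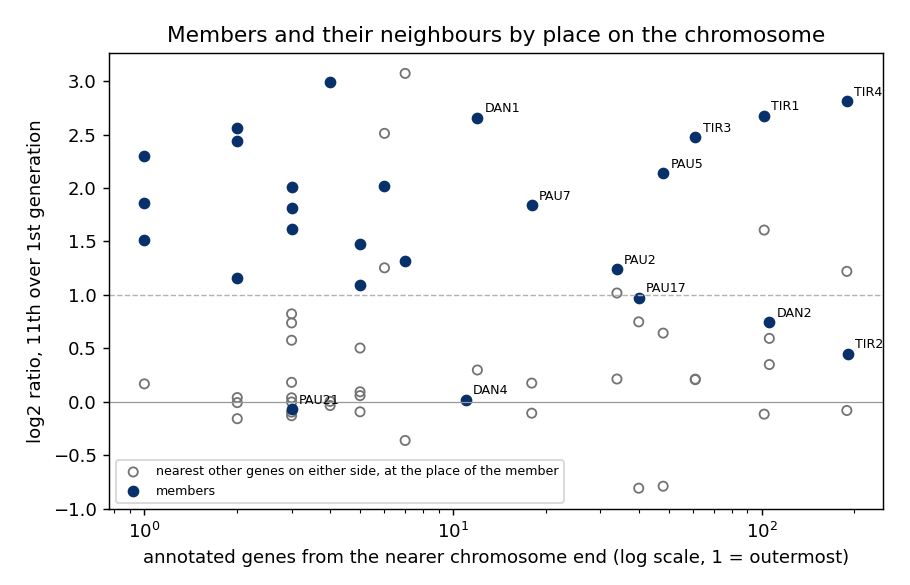
Log2 ratio at the 11th generation of the 26 members (filled) and of the nearest other features on either side (open, at the place of their member) against the number of annotated genes from the nearer chromosome end (log axis). Members beyond 2-fold occur both at the ends and inside chromosomes, and most neighbours lie within 2-fold.

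Of the regulators, UPC2, the activator of anaerobic and sterol uptake genes, had Cy3 intensities of 533, 581 and 1162 against 117, 106 and 111 in Cy5, and was 1.49-fold, 1.66-fold and 2.70-fold higher. The repressor ROX1 was 1.92-fold, 2.01-fold and 1.45-fold lower at the 4th, 7th and 11th generation, and MOT3 was 1.42-fold lower at the 11th. At the 11th generation the log2 ratios of ROX1 (-0.53) and MOT3 (-0.50) lay within the ACT1 spot SD of 0.64. Of 12 regulators, 3 were higher by 2-fold or more at the 11th generation (UPC2 and the glucose-repression factors NRG1 at 3.11-fold and NRG2 at 2.15-fold) and 1 lower (SPT23, an activator of OLE1, at 2.39-fold lower). The call of SPT23 was lost narrowly after subtraction of neighbouring spots and with loess within each block (-0.93). Their median log2 ratio was -0.20. By the authors' deposited values 4 regulators were higher and 2 lower.

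Over all features 7.35% were higher by 2-fold or more at the 11th generation. Of 11 hypoxic genes outside the family, 4 were, with a median log2 ratio of 0.68. They were ANB1, the anaerobic form of translation factor eIF5A, at 5.57-fold, YSR3, a sphingolipid phosphatase, at 3.79-fold, the fatty acid desaturase OLE1 at 2.49-fold and the sterol importer AUS1 at 2.33-fold. OLE1 was short of 2-fold in the authors' deposited values (log2 ratio 0.56), and AUS1 after subtraction of neighbouring spots (0.93) and with loess within each block (0.98). AUS1 lies beside TIR2. Of the 11 hypoxic genes, 8 had log2 ratios above 0. HEM13, AAC3 and CYC7, genes of haem synthesis, ADP transport and cytochrome c, were 1.48-fold, 1.76-fold and 1.35-fold lower. The log2 ratios of HEM13 (-0.57) and CYC7 (-0.43) lay within the ACT1 spot SD of 0.64. Those of ARE1 (0.36) and PDR11 (0.21), which are among the 8 above 0, did so too. Of 6 aerobic counterparts, CYC1 at 5.75-fold and HYP2 at 2.15-fold were lower by at least 2-fold and 0 were higher. Over all features 5.51% were lower, and 0 of 6 higher is too few to set apart from the share of 7.35%. In the authors' deposited values 4 of the 6 were lower. HYP2 was short of 2-fold after subtraction of neighbouring spots (-0.79) and with loess within each block (-0.65). ANB1 and HYP2 encode nearly the same protein, so their probes may share transcript.

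Of the mannoproteins of the aerobic wall, CWP1 had log2 ratios of 1.00, 1.10 and 0.96 and CWP2 of -0.37, 0.12 and -0.68 at the 4th, 7th and 11th generation. TIP1, a cold-shock mannoprotein related to the TIR proteins, had 1.09, 1.14 and 0.91. In the authors' deposited values TIP1 was at -0.09 and CWP2 at -2.45 at the 11th generation, so no direction can be given for TIP1. Of the 18 wall proteins listed outside the family, CWP1, CWP2 and TIP1 included, 8 were higher by 2-fold or more at the 11th generation, with FIT2 at 11.6-fold, FIT3 at 8.25-fold, HSP150 at 4.67-fold and SPI1 at 4.00-fold, and 0 were lower. Over all features, 7.35% were higher and 5.51% lower by 2-fold or more at that generation. The FIT proteins hold iron in the wall. The split of this list depended on the processing. In the authors' deposited values 7 were higher and 4 lower, these being CCW12, CWP2, PIR1 and TOS6, and HSP150 came to a log2 ratio of 1.20. With loess within each block 6 were higher and 2 (PIR1 and TOS6) lower, and after subtraction of neighbouring spots 7 were higher and 1 (PIR1) lower. From the 7th to the 11th generation the median log2 difference of these 18 was 0.03, against 1.00 for the PAU, DAN and TIR features. In that difference 3 of the 18 were at least 2-fold higher, against 13 of 25 members and 1.85% of all features.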

How the data were processed

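The authors deposited raw intensity values of the Cy5 and Cy3 channels, used here as the starting point. Per the file headers they then removed background and normalised globally, which the values show as 1 constant subtracted per channel and 1 factor on Cy3, and deposited the log2 ratio of Cy3 over Cy5. Scanner settings are not given in the sources used here. Raw intensities were corrected with normexp (offset 50) and normalised by loess within each array, with control spots at weight 0, in limma 3.58.1 under R 4.3.3. Further steps used Python 3.11.15, numpy 2.4.6 and pandas 2.3.3. A single feature was measured by 1 spot, except ACT1. Features entered a count with signal above background in either channel, on both arrays for a difference and on every array for the trend. Values of single arrays had no test. The trend fit was tested on simulated data, in which 82.5% of 200 slopes of 0.1 log2 units per generation among 5546 features were recovered with 16 false calls. Of slopes of 0.2, 100% were recovered with 22 false calls. The simulated noise was normal, with the variance of each feature already drawn towards that shared over features. These rates need not hold for the arrays, where the members had a median slope of 0.18 and 0 of 25 passed. Named were all members, 4 genes of each other list by 11th generation ratio, and the genes UPC2, ROX1, MOT3, CWP1, CWP2 and TIP1. HEM13, AAC3, CYC7, ARE1, PDR11, CCW12, PIR1 and TOS6 were named after their values were seen. Other background corrections, normalizations and filters were tried. Members and lists were chosen with earlier results of these data known.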

Additional observations from a re-analysis of the deposited data

Results flagged for a closer look

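PAU20 and PAU2 had ratios of opposite sign on the arrays of the 4th and the 11th generation. PAU20 had a log2 ratio of -0.03 at the 4th and 1.31 at the 11th generation, and PAU2 had -0.14 and 1.24. The difference was not tested for these genes alone, since each generation has 1 array. Both 4th generation values lie within the spread of 0.40 among the ACT1 spots, so their sign is not established. Both features lie in odd print blocks, where the median log2 ratio of all features was -0.22 at the 4th generation, and with loess within each block their 4th generation values were 0.29 and 0.27.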

How the results depend on the processing

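At the 11th generation the number of members beyond 2-fold stayed within 1.5 times of 21 under all alternatives tried. At the 4th generation it was 8 under plain subtraction and, against 4 as reported, 9 with the authors' deposited ratios, and the median was 0.85 in the latter. At the 7th generation it was 15 and 14 under these settings against 8, with a median of 1.22 under both, and 4 with loess within blocks and 5 after subtraction of neighbouring spots. The median at the 11th generation was 2.48 under plain subtraction. The median difference of the 7th and 4th generation was 0.25 without background correction, 0.30 under plain subtraction, with 1 member past 2-fold, and 0.27 in the authors' deposited values. The number of members rising at an adjusted p under 0.05 was 2 with loess within blocks, 19 after median centring, 20 without background correction, 1 under plain subtraction, 22 after subtraction of neighbouring spots, 1 without a filter on dim features and 2 with signal required in both channels, against 0. The cause was not tested. Of 453 values of single members under other settings, 68 moved by more than the SD of the ACT1 spots, and 27 had another sign than the reported value, all with a reported log2 ratio of at most 0.43 in size. No value reported beyond 2-fold changed sign. Subtraction of neighbouring spots, the limit without outlying blanks and the further PAU feature were chosen after seeing the data. No paired analysis was possible because each generation has 1 array. Leaving out an array was not run, since each comparison rests on 1 or 2 arrays and the trend would keep no residual degree of freedom. Signal over background limits DAN1, DAN4, PAU21, PAU3, PAU19 and DAN2, which lay near the blank spots in Cy5. TIR2, PAU15, PAU17, PAU7 and TIR4 were dim as well, with raw Cy5 intensities between 37.3 and 66.3. The a-specific genes reached 86.9 in Cy5. At the 11th generation the log2 ratio of PAU15 moved from 1.82 to 3.13 in the authors' deposited values, and that of TIR4 from 2.81 to 3.81. Leaving out features that name several loci left all values as reported, since none of the 26 does.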

Other observations

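Some genes next to members were also above 2-fold at the 11th generation. The nearest other features on either side of PAU13 were ARN2, a siderophore transporter, with a log2 ratio of 2.51, and DFP4, with 1.25. YOL162W, next to PAU20, had a log2 ratio of 3.07, above that of PAU20 at 1.31. PRE1, a proteasome subunit next to TIR1, had 1.61, and RML2, a mitochondrial ribosomal protein next to PAU2, had 1.02. These neighbours were chosen after their values were seen.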
